A study of Mus musculus with 6 samples.

Results

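The genes of 8 major milk proteins were followed on 6 Affymetrix arrays of mammary epithelial organoids, pieces of ductal and alveolar epithelium released by digesting the gland. They are the caseins Csn1s1, Csn1s2a, Csn1s2b, Csn2 and Csn3, the whey proteins Wap and Lalba, and the milk mucin Glycam1. They were chosen by name, as every probe set whose annotation holds exactly 1 of these symbols. These were 14 probe sets, and the 8 genes are among 18193 genes that a probe set with 1 symbol names. Each array held the RNA of 1 mouse of 8 weeks, of mixed 129/J and C57BL/6 background. All 6 mice had both Wwox alleles floxed. The 3 mice behind arrays WT1 to WT3 had no Cre, and the 3 behind KO5 to KO7 also carried BK5-Cre, driven by a bovine keratin 5 promoter. Since no array had Cre and an intact Wwox, loss of Wwox and an effect of Cre cannot be told apart.

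Milk proteins are made by luminal epithelial cells, above all by the alveolar cells that form in pregnancy. Prolactin, through its receptor and the kinase Jak2, activates the transcription factor Stat5, which binds the promoters of casein genes. In the virgin gland these genes are transcribed at a lower level. Alpha, beta and kappa caseins assemble into micelles that carry calcium and phosphate, and kappa casein (Csn3) keeps the micelles in solution. Alpha-lactalbumin (Lalba) joins a galactosyltransferase to make lactose, and Wap, the whey acidic protein, is a marker of late differentiation. Glycam1 is a mucin-like protein of milk and is also known from the high endothelial venules of lymph nodes, where it carries sugars that L-selectin binds.

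The casein genes lie in 1 cluster on chromosome 5. In the RefSeq gene table (GRCm38.p6) its 8 protein-coding genes were, in order, Csn1s1, Csn2, Csn1s2a, Csn1s2b, Prr27, Odam, BC037156 and Csn3. The RefSeq table of promoters (GRCm38.p6) held 6 of the 8 milk protein genes. The 250 bases before the start were searched on both strands for TTCNNNGAA, the palindromic motif of Stat5 proteins, and 3 of these 6 held it, against 7.18% of 27025 genes with a window of the same length. The sequences of 4 genes whose levels are described below are shown 5′ to 3′ on the strand of the gene, with the motif in capitals. Csn1s1 (chr5:87665958-87666207, plus strand) has it 100 bases before the start, Csn2 (chr5:87699426-87699675, minus strand) 93 bases and Glycam1 (chr15:103565082-103565331, minus strand) 145 bases. Csn1s2a (chr5:87774200-87774449, plus strand) has none in this window, but a match, TTCTTAGAA, begins at base 21 after the start. A match is a description of the letters and not a site of binding.
Csn1s1: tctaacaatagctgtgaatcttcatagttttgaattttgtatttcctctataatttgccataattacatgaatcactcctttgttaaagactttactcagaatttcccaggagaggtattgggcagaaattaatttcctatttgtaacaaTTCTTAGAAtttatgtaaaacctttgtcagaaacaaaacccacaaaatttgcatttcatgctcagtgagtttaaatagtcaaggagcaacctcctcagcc
Csn2: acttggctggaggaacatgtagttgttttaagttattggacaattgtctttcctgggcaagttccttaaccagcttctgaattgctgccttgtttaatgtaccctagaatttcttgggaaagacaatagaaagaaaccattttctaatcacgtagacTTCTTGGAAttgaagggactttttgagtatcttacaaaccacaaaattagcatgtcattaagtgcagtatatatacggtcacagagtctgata
Csn1s2a: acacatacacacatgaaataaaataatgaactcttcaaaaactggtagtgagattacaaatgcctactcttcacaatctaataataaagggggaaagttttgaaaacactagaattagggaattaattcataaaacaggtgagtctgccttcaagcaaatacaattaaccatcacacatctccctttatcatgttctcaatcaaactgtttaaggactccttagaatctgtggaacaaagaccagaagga
Glycam1: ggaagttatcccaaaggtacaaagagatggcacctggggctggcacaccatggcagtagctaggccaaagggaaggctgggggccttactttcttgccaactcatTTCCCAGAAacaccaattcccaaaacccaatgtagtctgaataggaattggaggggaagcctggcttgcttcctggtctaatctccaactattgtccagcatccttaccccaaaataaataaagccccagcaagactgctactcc

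Values are the log2 values that the authors deposited after RMA, and a level of 6 is used below as the border of dim probe sets, near which the median probe set (5.45) lies. Levels of different probe sets cannot be set against each other, so only arrays are compared. KO was compared with WT by limma over 45037 probe sets, and a call needed a change of 2-fold or more together with an unadjusted p under 0.01. Adjusted p-values are those of Benjamini and Hochberg over all 45037. The brightest Wwox probe set averaged 7.71 ± 0.07 in WT (SD, n = 3) and 6.02 ± 0.19 in KO (SD, n = 3), a change of -1.69 (SE 0.13, limma adjusted p = 0.0228), so the labels hold for the targeted gene. All 15 measured markers of luminal and all 11 of basal epithelium had means of at least 6. Krt8 lay between 14.40 and 14.71 and Krt5 between 8.81 and 9.13. The 3′ minus 5′ difference of the control transcript Gapdh, which grows as RNA is degraded or copied incompletely, was 0.95 to 2.41 in WT and 0.40 to 0.56 in KO, with all WT arrays above all KO arrays. RNA quality and genotype thus cannot be told apart on these arrays.

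None of the 14 milk protein probe sets was called (0 of 14), where 1.99% of all probe sets were, and 0 had an adjusted p under 0.05. An unadjusted p under 0.05 was reached by 3 of 14 (21.4%), beside 19.3% of all probe sets, and of these 1 was higher and 2 were lower in KO. The groups did not overlap for 4 of the 14 (28.6%), beside 24.3% of all probe sets, and these 4 were all dim. In KO, 10 were lower and 4 higher, and the median change was -0.19 (log2), beside -0.03 for all probe sets. Markers of other cell types also differed between the groups. Of 9 endothelial markers 9 were higher in KO (median 0.63, 2 called), and of 10 fibroblast markers 8 (median 0.44, 2 called, Col1a1 and Pi16). Of 13 macrophage and dendritic cell markers 13 were lower (median -0.27, 3 called). All 10 markers of T and NK lymphocytes were lower too (median -1.35, 0 called). So were all 10 of high endothelial venules and lymph node, most of them dim (median -0.50, 0 called). The summed level (log2) was 12.58 to 13.07 in WT and 13.22 to 13.69 in KO for the endothelial list, 14.81 to 14.96 and 15.10 to 15.64 for fibroblasts, and 10.50 to 11.46 and 9.95 to 10.85 for macrophages. Their part in the milk protein values was not tested. In bulk RNA of organoids, fewer milk-producing cells and less RNA in each of them cannot be told apart. Of the 14, 8 probe sets of 6 genes had a mean of at least 6, and only these carry the account that follows.

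**Figure D1:**
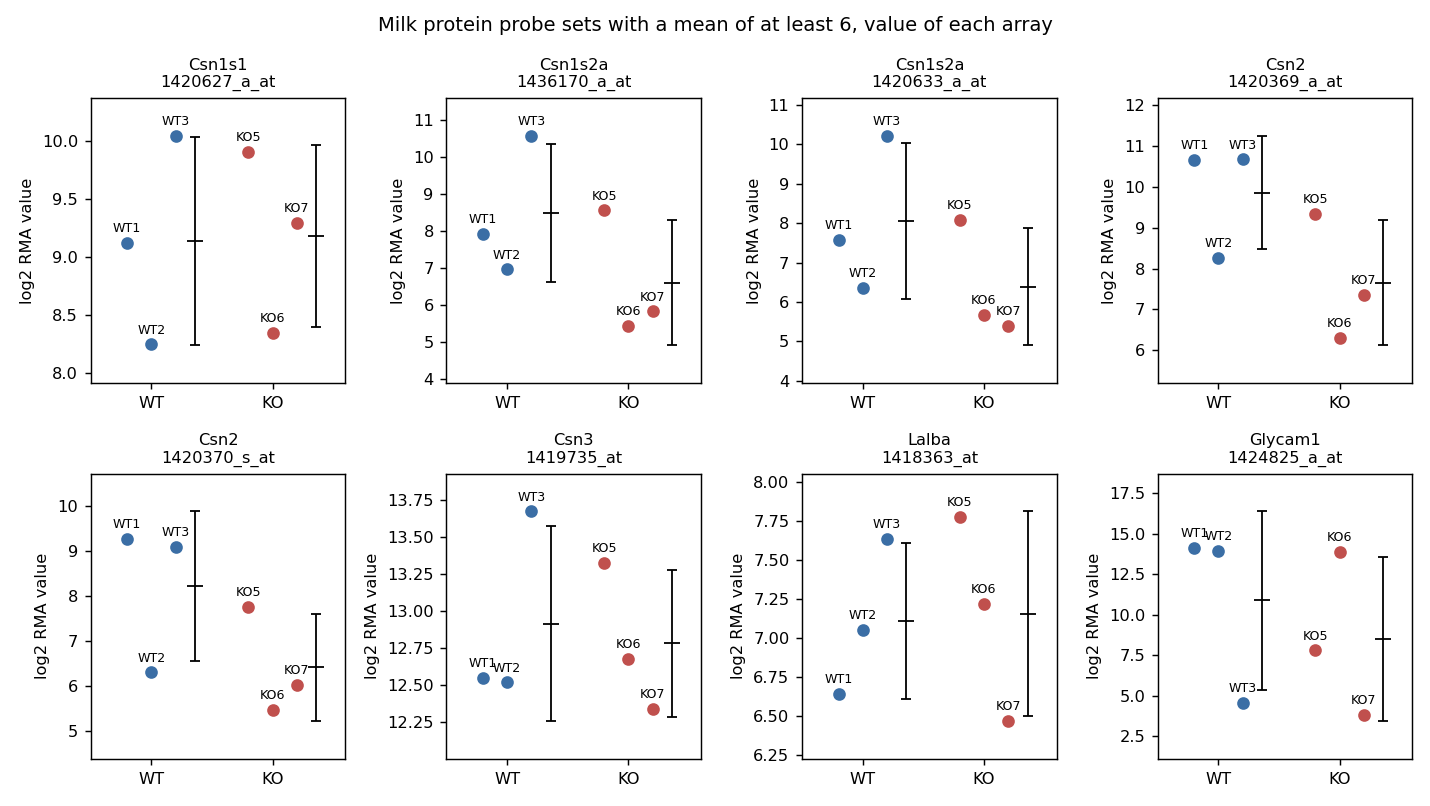
Log2 RMA values (y axis) of the 8 milk protein probe sets with a mean of at least 6 on each array, in WT and KO; points are mice and bars the mean and SD of 3. WT and KO overlap in every panel, and Glycam1 runs from 3.83 to 14.15.

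Beta casein, the product of Csn2, is a major casein of mouse milk. Its brighter probe set, 1420369_a_at, was at 10.66 (WT1), 8.26 (WT2) and 10.68 (WT3), and at 9.33 (KO5), 6.30 (KO6) and 7.35 (KO7). WT1 and WT3 were above all KO arrays, but WT2 was below KO5. The means were 9.86 ± 1.39 in WT (SD, n = 3) and 7.66 ± 1.54 in KO (SD, n = 3), a difference of -2.21 (SE 0.89, 95% interval -4.28 to -0.13), or 4.61-fold. It did not pass the call (limma adjusted p = 0.234). The second probe set, 1420370_s_at, gave 9.27, 6.30 and 9.10 in WT1 to WT3 and 7.75, 5.45 and 6.02 in KO5 to KO7, so WT2 again lay below KO5. Its difference was -1.81 (SE 0.88, limma adjusted p = 0.314). Without KO5 the brighter probe set differed by -3.04 (limma adjusted p = 0.221) and passed the call, and without WT2 the second did, at -2.77 (limma adjusted p = 0.234). Other alternatives made the difference smaller, to -1.53 for the brighter set without KO6 and -1.63 with array weights, and to -1.29 for the second set without WT1 and -1.21 with array weights, none of them called. With the RNA quality of each array as a covariate the brighter set differed by -4.05 and was not called (limma adjusted p = 0.983). As all WT arrays exceeded all KO arrays in this covariate, the fit cannot separate RNA quality from genotype.

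Csn1s2a encodes an alpha-S2 type casein. Probe set 1436170_a_at was at 7.91 (WT1), 6.97 (WT2) and 10.58 (WT3), and at 8.56 (KO5), 5.44 (KO6) and 5.83 (KO7). WT3 stood highest, KO5 came next, above WT1 and WT2, and KO6 and KO7 were lowest. The difference was -1.88 (SE 1.08, 95% interval -4.40 to 0.65, limma adjusted p = 0.394). Over the alternatives it ran from -2.85 (without KO5) to -0.83 (without WT3). The second bright probe set, 1420633_a_at, differed by -1.67 (limma adjusted p = 0.437) with the same 4 arrays on top in the same order. The other 3 probe sets of the gene were dim, with means of 3.28 to 3.52 and differences of -0.24 to 0.17.

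Csn1s1, alpha-S1 casein, was at 9.12, 8.25 and 10.04 in WT1 to WT3 and at 9.90, 8.35 and 9.29 in KO5 to KO7. WT3 and KO5 were again highest, and WT2 and KO6 lowest. The groups covered nearly the same range, with a difference of 0.04 (SE 0.52, 95% interval -1.16 to 1.25, limma adjusted p = 0.975). Kappa casein, Csn3, was at 12.55, 12.52 and 13.67 in WT and at 13.32, 12.68 and 12.34 in KO. WT3 and KO5 were highest, and the other 4 arrays lay within 12.34 to 12.68. Csn3 differed by -0.13 (95% interval -0.98 to 0.72, limma adjusted p = 0.881), an interval within 2-fold either way. Its second probe set was dim, with a mean of 4.40.

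Lalba was at 6.64 (WT1), 7.05 (WT2) and 7.63 (WT3), and at 7.78 (KO5), 7.22 (KO6) and 6.47 (KO7). KO5 and WT3 were highest here too. The difference was 0.04 (95% interval -0.81 to 0.90, limma adjusted p = 0.964), again an interval within 2-fold. The other whey gene, Wap, was dim, at 4.89, 4.89 and 4.91 in WT and 5.12, 5.27 and 5.18 in KO. Every KO array lay above every WT array, by a small step of 0.29 (SE 0.10, limma adjusted p = 0.184). Csn1s2b was dimmer still, at 3.47, 3.54 and 3.55 in WT and 3.25, 3.34 and 3.20 in KO, with each KO array below each WT array and a difference of -0.26 (SE 0.10, limma adjusted p = 0.229). At such levels the arrays do not show whether the transcript was present.

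**Figure D2:**
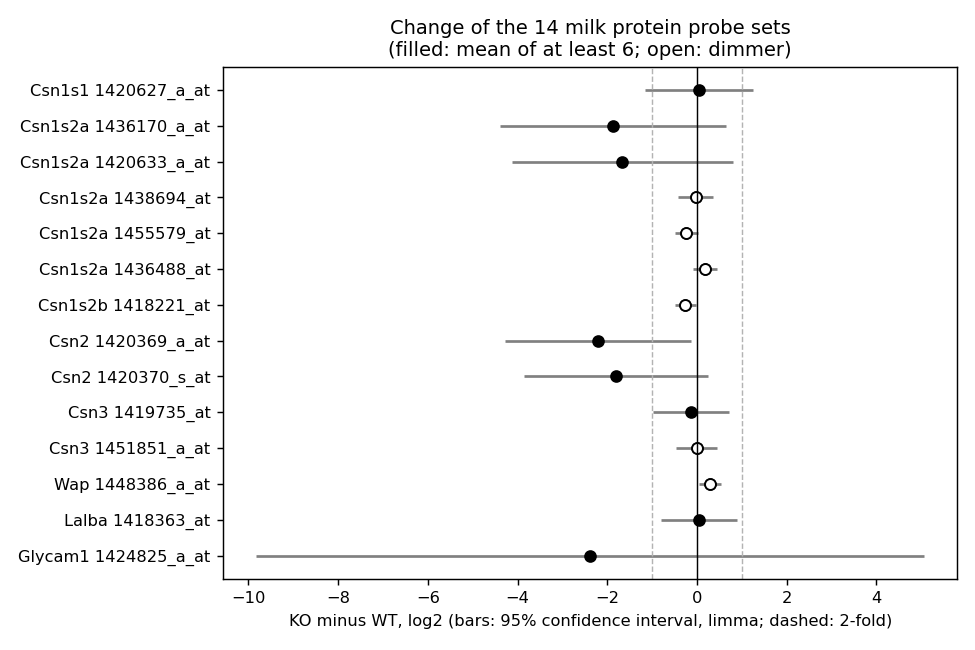
Difference KO minus WT (x axis, log2) of the 14 milk protein probe sets (y axis) with 95% confidence intervals from limma; filled points have a mean of at least 6, open points are dimmer and dashed lines mark 2-fold. The Glycam1 interval runs from -9.82 to 5.06, and that of the brighter Csn2 set from -4.28 to -0.13.

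Glycam1 was at 14.15 (WT1), 13.96 (WT2) and 4.54 (WT3), and at 7.80 (KO5), 13.89 (KO6) and 3.83 (KO7). It was near 14 in 3 mice of both genotypes, between 3.83 and 4.54 in 2, and intermediate in KO5. Highest and lowest array were 10.32 apart on the log2 scale, and its SD over the 6 arrays (4.90) and its range both ranked 1 of 45037 probe sets. WT3 and KO7 were at dim levels, where the arrays do not show whether the transcript was present, so no fold is given. The means, 10.88 ± 5.50 in WT (SD, n = 3) and 8.51 ± 5.07 in KO (SD, n = 3), differed by -2.38 (SE 3.18, 95% interval -9.82 to 5.06, limma adjusted p = 0.737). Without KO7 the difference was -0.04 and without WT3 it was -5.55.

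The spread between mice was large for other members as well. Over all 6 arrays the SD of the median probe set was 0.20. The SD of the bright Csn1s2a sets ranked 42 and 54 from the top of 45037 and that of the Csn2 sets 58 and 72, with a range of 5.14 for the brightest Csn1s2a set, whose KO6 and KO7 values were dim, and of 4.38 for that of Csn2. Csn1s1 ranked 1128, Csn3 3118 and Lalba 3174, with ranges of 1.80, 1.33 and 1.31. These SDs, taken over all 6 arrays, include any difference between WT and KO. Within WT and within KO the SD was 1.87 and 1.70 for the brightest Csn1s2a set. It was 1.39 and 1.54 for that of Csn2, 0.90 and 0.78 for Csn1s1, and 0.66 and 0.50 for that of Csn3. Among the caseins the genes of alpha-S2 and beta casein varied more between mice than those of alpha-S1 and kappa casein, as measured by these probe sets. Among probe sets with a mean within 0.5, the SD stood at percentile 99.8 (Csn1s2a), 99.6 (Csn2), 96.8 (Csn1s1) and 94.5 (Csn3). Csn3 ranked 387 from the top by mean, and whether so bright a probe set shows the full spread was not tested.

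**Figure D3:**
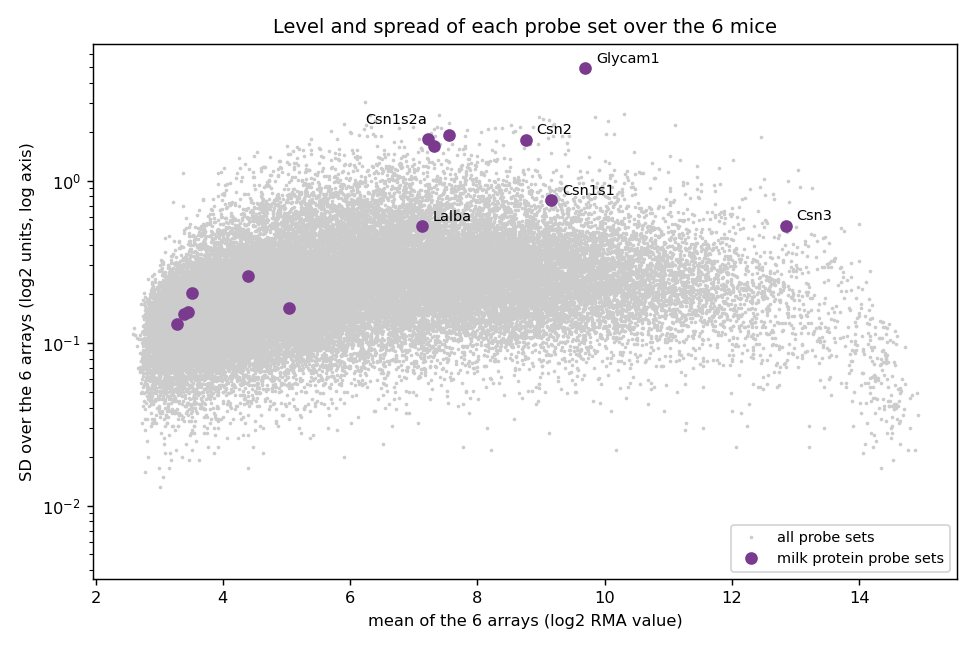
Mean (x axis, log2 RMA value) and SD (y axis, log2 units, log axis) over the 6 arrays of each of the 45037 probe sets in grey and of the 14 milk protein probe sets in purple, with the brightest set of each bright gene named. Glycam1, with an SD of 4.90, is the highest point.

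WT3 and KO5 were the 2 highest arrays for 4 of the 8 genes (Csn1s1, Csn1s2a, Csn3 and Lalba), as for 4.73% of all probe sets. The pair was taken from Csn3 itself, so Csn3 is among these 4 by choice. For Csn2 the highest were WT3 and WT1, with KO5 next, and for Glycam1 both WT3 and KO5 were among the lower 3. Below the top the orders differed, with KO7 next after WT3 and KO5 for Csn1s1 but last for Csn3 and Lalba. Over the 6 arrays, which also differ in RNA quality, Pearson's r was 0.88 for Csn1s2a with Csn2 and for Csn3 with Lalba, 0.86 for Csn1s2a with Csn3, and 0.25 for Csn2 with Lalba, given as a description of 10 pairs with no test. The 2 bright probe sets of a gene followed each other at 0.99 for Csn1s2a and 0.98 for Csn2. WT3 and KO5 were also highest for 5 of 11 basal markers, but not for Krt5, Krt14 or Krt17. They were highest for 0 of 15 luminal markers. The summed level (log2) of the basal markers ran from 14.33 to 14.67 in WT and from 14.36 to 14.71 in KO. The part of basal cells in the order of the milk protein genes was not tested.

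Glycam1 was highest in WT1, WT2 and KO6, and lower in WT3 and KO5, the mice with the highest Csn3. The same 3 arrays were highest for 8 of 10 measured markers of T and NK lymphocytes, for 5 of 10 of high endothelial venules and lymph node and for 4 of 13 of macrophages and dendritic cells, beside 6.64% of all probe sets. Cd3d, a chain of the T cell receptor complex, was at 10.27, 9.13 and 6.04 in WT1 to WT3 and at 5.50, 8.39 and 5.25 in KO5 to KO7. Ccr7, a homing receptor of lymphocytes, was at 10.02, 8.99 and 5.45 in WT and 4.96, 8.31 and 6.22 in KO. Both were high on the arrays where Glycam1 was near 14, and low on the other 3, including KO5, where Glycam1 was intermediate. Chst4, the sulfotransferase of high endothelial venules, was dim but had the same 3 arrays on top, at 5.11, 4.47 and 3.55 in WT and 3.41, 4.27 and 3.51 in KO. Cxcl13, a chemokine that draws B cells, was at 10.51, 9.58 and 8.58 in WT and 6.32, 9.87 and 7.52 in KO. The summed level (log2) of the lymphocyte list ran from 9.90 to 12.81 in WT and from 9.49 to 11.01 in KO, and that of the venule and lymph node list from 9.30 to 11.53 and from 8.18 to 10.58. Of the latter list only Ccr7 and Cxcl13 had means of at least 6, and Fut7 and Madcam1 stayed between 5.41 and 6.17. Fut7 was at 5.98, 5.65 and 5.47 in WT and 5.48, 5.57 and 5.62 in KO. Madcam1 was at 6.17, 5.83 and 5.60 in WT and 5.41, 5.68 and 6.01 in KO. For both, KO7, the lowest array for Glycam1, was among the 3 highest and lay above KO6. The part of such cells in the Glycam1 values was not tested.

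**Figure D4:**
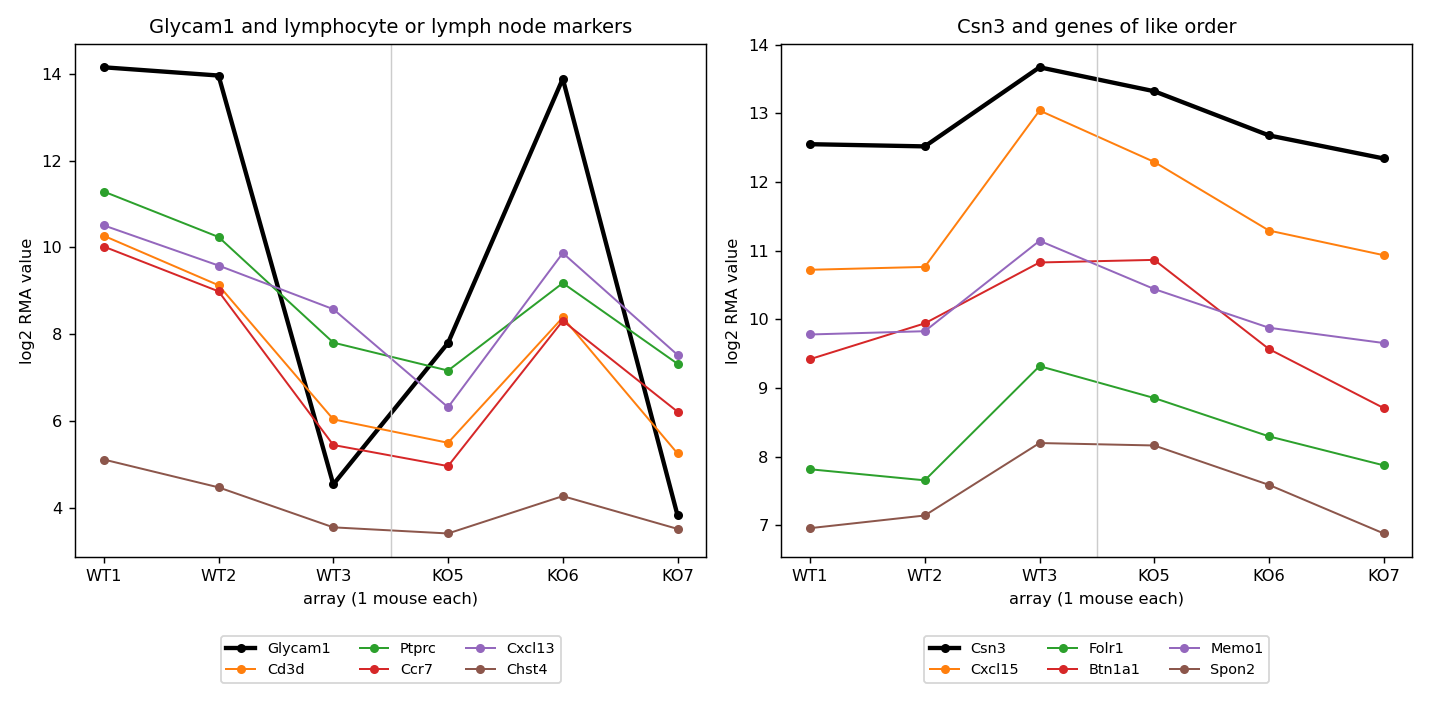
Log2 RMA values (y axis) on each array (x axis, 1 mouse each) of Glycam1 with 5 lymphocyte or lymph node markers (left) and of Csn3 with 5 of the genes most like it (right); lines only join the values of a gene. Glycam1 peaks in WT1, WT2 and KO6, while Csn3 is highest in WT3 (13.67) and KO5 (13.32). The 5 markers on the left all have WT1, WT2 and KO6 highest, unlike Fut7 and Madcam1, which are not shown.

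The genes most like the milk protein genes were sought among 2139 probe sets of 1769 genes with a mean of at least 6 and an SD of at least 0.5. The 10 that followed the mean profile of the 8 genes best were 2610528A11Rik (r = 0.97), Thy1, Cp, Ltf, Fxyd5, Cd55, Tspan33, Cxcl16, S100a8 and Cbr2 (r = 0.90), over 6 arrays and with no test. Without WT1 and KO7, the arrays farthest from the median of this profile, some fell away. There r was 0.26 for Thy1, 0.57 for Fxyd5, 0.36 for Cxcl16 and -0.07 for S100a8. It was 0.82 for Cp and higher for the rest. That profile leans on Glycam1, and without Glycam1 none of the 10 remained (0 of 10), with Tnnc1 (r = 0.96), Sftpd and Cdk5rap1 leading. For Csn3 alone the 10 genes were Memo1 (r = 0.98), Cxcl15, Folr1, Spon2, Cryz, Akr1c14, Qpct, Btn1a1, Dkkl1 and Fkbp14. Folr1, a folate receptor, was at 7.81, 7.65 and 9.32 in WT and 8.85, 8.29 and 7.87 in KO, and Btn1a1, the butyrophilin of the milk fat globule membrane, at 9.42, 9.94 and 10.83 in WT and 10.87, 9.57 and 8.71 in KO. Both were highest in WT3 and KO5, as Csn3 was, but both had been picked for likeness to Csn3. Of 13 milk fat globule genes these 2 had this pair on top. Such an r can rest on WT3 and KO5, and without these 2 arrays it was 0.95 for Memo1, 0.57 for Folr1 and 0.70 for Btn1a1 but -0.20 for Cryz and -0.01 for Dkkl1.

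Other genes were read from lists, on the brightest probe set of each gene. The lists covered milk secretion and its regulation, neighbours of the casein genes, ovarian hormone response, and involution with Stat3. Over 141 genes of 10 lists 4 were called (2.84%, beside 1.99% of all probe sets), all lower in KO. The 2 shares are not alike, since the lists hold the brightest set of each gene and all probe sets include many dim ones. When the fit was limited to the 19325 probe sets with a mean of at least 6, 661 were called, a larger share than the 2.84% of the lists. Of 15 other milk proteins 1 was called lower and 0 higher, with a median change of -0.30. It was Ltf, lactoferrin, which binds iron in milk, at 11.71, 11.69 and 11.67 in WT and 10.71, 10.20 and 8.45 in KO, so that every KO array lay below every WT array (difference -1.90, SE 0.51, limma adjusted p = 0.115). The call was lost without WT1, without WT2, without WT3 or without KO6, at differences of -2.11 to -1.89, and with the RNA quality covariate (-1.88, limma adjusted p = 1). Of 15 genes of ion, zinc and calcium transport 1 was called lower and 0 higher (median -0.07). It was Atp7b, a copper pump, at 7.54, 7.57 and 7.05 in WT and 5.59, 4.82 and 5.90 in KO (difference -1.95, SE 0.28, limma adjusted p = 0.05), again with no overlap. Slc5a5, the iodide transporter, passed the call without WT3 (difference 2.04, limma adjusted p = 0.101). Csn2 and Csn1s2a differed by a like amount to Ltf and Atp7b but with WT and KO mice overlapping.

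Of the milk fat globule proteins 0 of 13 were called, of the genes of lactose synthesis 0 of 10, and of milk fat synthesis 0 of 19, with medians of 0.08, -0.01 and -0.04. Muc15, a mucin of the globule membrane, differed by -1.16 (limma adjusted p = 0.222) and B4galt1, the partner of Lalba in lactose synthase, by 0.37 (adjusted p = 0.25), neither called. Of the prolactin, Jak2 and Stat5 pathway 0 of 16 measured genes were called (median 0.10). The gene of the prolactin receptor, Prlr, was listed but was not among these 16. Cish, a target of Stat5, was at 9.21, 9.59 and 9.33 in WT and 8.89, 8.58 and 8.59 in KO, below WT in every mouse but by under 2-fold (difference -0.69, limma adjusted p = 0.0763). Stat5a was at 10.14, 9.39 and 9.55 in WT and 9.77, 9.80 and 10.21 in KO, with the groups overlapping. Of 18 transcription factors of alveolar differentiation 0 were called (median 0.09), among them Elf5, which drives alveolar fate, at -0.63 (adjusted p = 0.442). Runx1, at 1.06 (adjusted p = 0.245), passed the call without WT1 (1.48, limma adjusted p = 0.0535). Of a list drawn up as neighbours of the casein genes, of which only Odam lies within the cluster in the RefSeq table, the 16 measured genes were all dim and 0 were called. Within the cluster Prr27 and Odam stayed at 5.50 to 5.71 and 2.84 to 3.35.

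Of 11 genes that respond to ovarian hormones 1 was called lower, Tnfsf11, a progesterone target that acts on neighbouring cells, at 9.46, 7.55 and 6.95 in WT and 4.98, 4.48 and 5.49 in KO (difference -3.01, limma adjusted p = 0.07). The difference was -2.27 without WT1 and -5.07 with the RNA quality covariate. Of 15 involution and Stat3 genes 1 was called lower, Lif, at 11.38, 11.67 and 11.46 in WT and 10.32, 10.97 and 10.17 in KO (difference -1.01, limma adjusted p = 0.076). The call of Lif was lost without KO5, KO7 or WT2, at -0.93, -0.86 and -0.93, with the RNA quality covariate (-0.75), after cyclic loess (-0.97) and after ribosomal protein centring (-0.92). Neither Tnfsf11 nor Lif followed the order of mice of Csn3, which was highest in WT3 and KO5.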

How the data were processed

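Organoid RNA of 3 WT and 3 KO mice was profiled on Affymetrix mouse arrays, each mouse on its own array. The deposited log2 values are the output of RMA as run by the authors, with background correction, quantile normalization and a summary per probe set. Its version is not given in the sources used here. These were used as deposited. Of 45101 probe sets, 64 controls served for RNA quality only and 45037 were tested, of which 34945 carry 1 gene symbol in the platform annotation. The difference between KO and WT was fitted by lmFit and eBayes without covariates (limma 3.58.1 under R 4.3.3) with Benjamini-Hochberg adjustment, and the limits for a call are those the study used. The fit was tested on simulated data with independent noise. The most variable probe sets were given a smaller spread there, so that test does not speak for Glycam1, Csn2 or Csn1s2a. The milk protein genes, gene lists and tests were chosen with earlier results of these data known. Named genes were all members, called list genes (up to 5 a list, otherwise the 3 largest changes, a choice of which is printed), Wwox, and the 10 genes most like the member profile. Stat5a, Stat3, Krt8, Krt5, Prr27, Odam, Slc5a5, Ptprc, Chst4, Fut7 and Madcam1 were chosen after their values were seen. Alternatives covered normalization, centring, variance models, limits, RNA quality, the replicate number and each array left out. The number of arrays limits the precision. Figures were drawn in matplotlib 3.10.9.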

Additional observations from a re-analysis of the deposited data

How the results depend on the processing

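Across all probe sets 894 were called. The count was 316 with RNA quality as a covariate, 100 at an adjusted p under 0.05 with no fold limit, 8686 at an unadjusted p under 0.05 with no fold limit, and 566 (without WT2) to 1634 (without WT1) with 1 array left out. Of the 14 milk protein probe sets 0 were called, and 0 to 1 with 1 array left out, the 1 being a Csn2 set without KO5 or without WT2. At an unadjusted p under 0.05 with no fold limit 3 were. The groups share replicate numbers, but same-numbered mice deviated together by r = -0.16, 0.16 and 0.10 only, so the numbers were not taken as pairs. With the replicate number as a block 2 were called, both of Csn2 (limma adjusted p = 0.0969 and adjusted p = 0.129). In the other lists 4 genes were called, and 2 (without WT2) to 5 with 1 array left out. Without WT1, Stat3 passed the call at 1.77 (limma adjusted p = 0.00268), as it did with array weights, cyclic loess, the trend and robust prior, or ribosomal centring. Of the 10 genes most like the mean profile, 0 were shared when Glycam1 was left out, 0 with Csn3 alone and 3 by Spearman's rho.

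Direction changed only for probe sets whose difference lay between -0.13 and 0.04. With the RNA quality covariate Csn1s1 was at -0.42, Csn3 at 0.13, its dim set at 0.38, Lalba (still above 0) at 0.61 and the dim Csn1s2a set 1438694_at at 0.17. The last was at 0.0186 after cyclic loess, 0.0127 after a second quantile normalization and 0.069 after centring on ribosomal protein genes. The dim Csn3 set was at 0.0091 with array weights, 0.0065 after cyclic loess and 0.0871 after that centring. With 1 array left out Csn1s1 ran from -0.40 to 0.50, Csn3 from -0.40 to 0.25 and its dim set from -0.16 to 0.14, Lalba from -0.27 to 0.39 and 1438694_at from -0.17 to 0.0945. Both bright sets of Csn2 and of Csn1s2a and that of Glycam1 stayed below 0 in all 14 alternatives, and of these only the Csn2 sets were called, each in 2. Intervals of Glycam1 and Csn2 show that 3 mice a group cannot bound their change within 2-fold.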
